A study of Mus musculus with 4 samples.

Results

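The 43 genes described here work in DNA replication and mitosis. They were taken by symbol from a fixed list of 21 S phase genes (Mcm2 to E2f1) and 22 mitosis genes (Mki67 to Hmmr), and all 43 were found among the 24043 rows of the expression table. RNA was sequenced from mammary tumor cells of female MMTV-PyMT mice, in which the MMTV promoter drives the polyoma virus middle T oncogene in mammary epithelium. In both groups the mice carried a Rosa26-Stop-YFP reporter (R26Y), and an adenovirus with Cre under the Krt8 promoter (Ad-K8-Cre) had been injected into the mammary ducts 2 to 3 months before YFP+ cells were sorted. The 2 wild-type libraries came from Lsd1+/+ mice. The other 2 libraries are titled Lsd1 knockout and, per the series' design text, came from mice with conditional Lsd1L/L alleles, although their tissue label reads Lsd1+/+. They are called the knockout-labelled libraries. Neither the age of the mice nor whether each library came from a separate animal is given in the labels. The p-values therefore cover the spread among these 4 libraries alone, which may be technical.

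Before DNA is copied, the licensing factors Cdc6 and Cdt1 load the Mcm2 to Mcm7 helicase onto origins, and cyclin E with its kinase partner helps to start synthesis. Many S phase genes are transcribed through E2F sites. Genes for mitosis are switched on later, largely through a promoter element called the cell cycle genes homology region (CHR) together with boxes bound by NF-Y, and the anaphase-promoting complex (APC/C) then removes mitotic proteins. Proliferating tumor cells are known for high RNA levels of both sets. In a bulk sample, fewer cycling cells and less of these RNAs per cell cannot be told apart.

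The libraries differed in more than their label. Levels were taken as FPKM, reads or fragments per length of transcript and scaled to the library's reads, and these summed to between 401786 and 449838 per library. From the steps between the lowest values, the depth of the wild-type libraries was 1.03 and 0.85 times that of the second knockout-labelled library, and the first of that pair was at 0.93. Kdm1a, which encodes LSD1, was at 52.5 and 22.9 FPKM in wild-type against 20.2 and 22.8 FPKM in the knockout-labelled libraries (limma, adjusted p = 0.34), so its level does not separate the groups beyond the spread. The 13 lymphocyte markers summed to 18.3 and 81.7 FPKM in wild-type and to 2101 and 1998 FPKM in the knockout-labelled libraries, with none at 0 in any library and 12 of 13 past the threshold. The 13 epithelial markers, which define the labelled cell type, were present in every library but summed to 13092 and 2916 FPKM in wild-type and to 817 and 840 FPKM in the knockout-labelled libraries. The second wild-type library stood apart with 14818 FPKM over 10 macrophage markers, against 600.02 to 1517 FPKM in the other 3. Its 7 endothelial markers summed to 176 FPKM and its 8 fibroblast markers to 627 FPKM, also the highest of the 4 libraries. The 8 neutrophil markers, of which 1 was at 0 in the first wild-type library, summed to 589 and 619 FPKM in wild-type and to 1205 and 1289 FPKM in the knockout-labelled libraries. The part of these marker differences in the results on replication and mitosis genes was not tested.

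The genes that passed the test were helicase and loading genes on one side and mitosis genes on the other. Mcm4 and Mcm6, 2 subunits of the replicative helicase, and Cdt1, which loads that helicase, rose in the knockout-labelled libraries. Ube2c, the ubiquitin-conjugating enzyme of the APC/C, and Birc5, the survivin subunit of the chromosomal passenger complex, fell. Hmmr, a spindle-associated hyaluronan receptor, was also lower past the threshold, but it reached 1 FPKM in wild-type only and so had to differ in order to be tested. Genes were tested with limma on log2(FPKM + 1) where at least 2 libraries reached 1 FPKM, and a gene passed at an adjusted p under 0.05. Of the 21 S phase genes, 3 rose, none fell, 16 did not pass and 2 were too low to be tested. Over all 11138 tested genes, 9.51% rose and 6.99% fell. Of the 22 mitosis genes, 3 were lower past the threshold with Hmmr counted, none rose, 14 did not pass and 5 were too low to be tested. At these shares of all genes, 3 of 19 and 3 of 17 tested genes are small counts that set neither list apart. At an unadjusted p under 0.05 in limma, 9 S phase genes were higher and 2 lower, and 7 mitosis genes were lower and 0 higher. The share of all tested genes under that unadjusted threshold was not counted. Counts at it, here and below, therefore set no list apart.

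**Figure D1:**
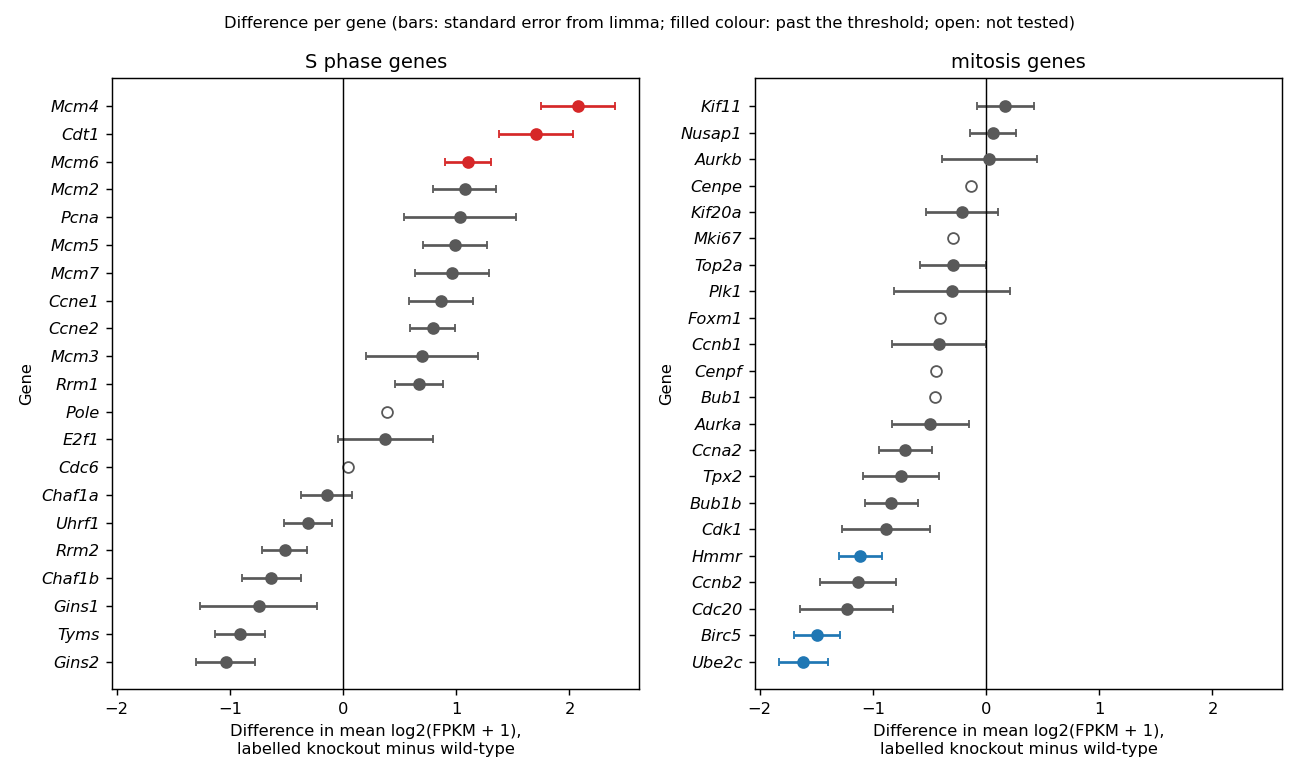
Difference in mean log2(FPKM + 1) between the knockout-labelled libraries and wild-type for each of 21 S phase genes (left) and 22 mitosis genes (right). Bars are the standard error from limma, red and blue points passed the threshold and open points were not tested. Mcm4 has the highest difference (2.08) and Ube2c the lowest (-1.61).

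Promoter sequence, which the choice of genes did not use, differed between the phases. Windows from 250 bases before to 50 bases after the start, from RefSeq on GRCm38.p6, matched 16 of the 21 S phase genes (18 windows) and 17 of the 22 mitosis genes (17 windows). Both strands were searched for an E2F type motif (TTCGCGC or TTGGCGC or TTCCCGC or TTGCCGC), for the CHR (TTTGAA) and for the NF-Y box (CCAAT). Overlapping matches were each kept, and an NF-Y box can overlap an E2F type match. The E2F type motif was in 72.2% of S phase windows, 23.5% of mitosis windows and 9.57% of all 32851 windows in the table. The CHR was in 5.56% of S phase windows, which is 1 window, in 70.6% of mitosis windows and in 17.9% of all windows. NF-Y boxes were common to both phases, at 66.7% and 88.2% against 37.4%. Each of the 12 mitosis genes with a CHR match also had an NF-Y box. A match is a stretch of letters and not a measured binding site.

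**Figure D2:**
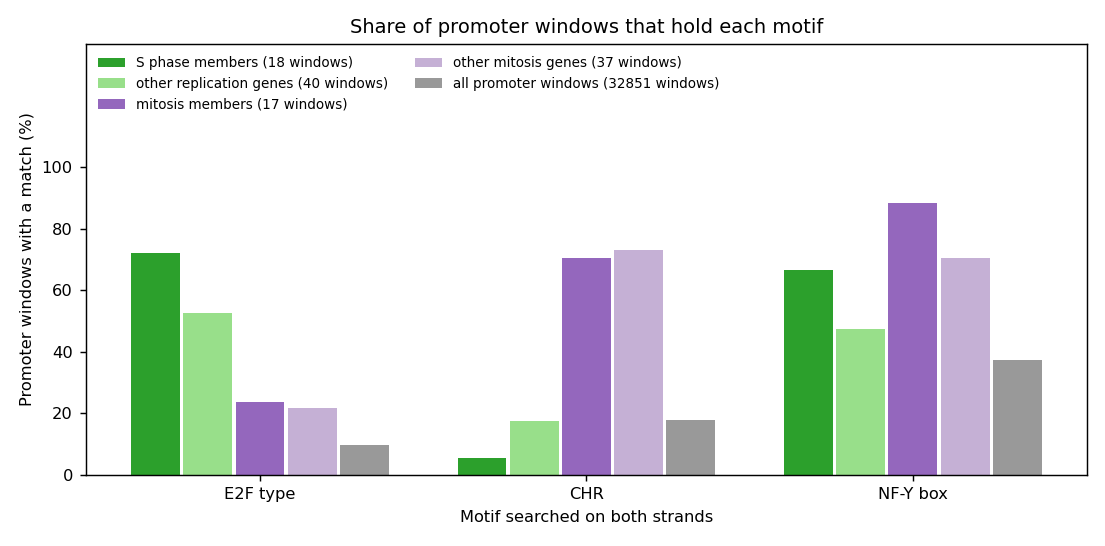
Share of promoter windows with at least 1 match to each motif on either strand, for the S phase and mitosis genes, for further replication and mitosis genes, and for all 32851 windows. E2F type matches are more frequent in the replication sets than in the mitosis sets, and CHR matches the other way round.

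The promoters of genes that passed are printed to show which matches they hold, with Cdk1 and Mcm2 for contrast. Each is the 200 bases just before the start, 5′ to 3′ on the gene's own strand (GRCm38.p6), and capitals mark matches to any of the motifs on either strand.
Mcm6, chr1:128359706-128359905, minus strand: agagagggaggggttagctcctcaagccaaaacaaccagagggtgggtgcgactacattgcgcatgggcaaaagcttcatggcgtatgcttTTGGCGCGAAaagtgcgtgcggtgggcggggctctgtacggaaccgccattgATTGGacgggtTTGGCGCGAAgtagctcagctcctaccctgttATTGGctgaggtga
Cdt1, chr8:122567815-122568014, plus strand: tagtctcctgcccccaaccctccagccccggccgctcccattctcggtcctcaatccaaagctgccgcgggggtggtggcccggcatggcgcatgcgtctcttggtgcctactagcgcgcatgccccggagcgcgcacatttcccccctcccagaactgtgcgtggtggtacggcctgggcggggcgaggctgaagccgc
Ube2c, chr2:164769729-164769928, plus strand: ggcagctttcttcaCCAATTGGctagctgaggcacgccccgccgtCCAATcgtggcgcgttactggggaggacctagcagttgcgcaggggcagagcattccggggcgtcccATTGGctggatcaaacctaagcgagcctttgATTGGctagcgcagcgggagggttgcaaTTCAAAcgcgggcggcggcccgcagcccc
Birc5, chr11:117849037-117849236, plus strand: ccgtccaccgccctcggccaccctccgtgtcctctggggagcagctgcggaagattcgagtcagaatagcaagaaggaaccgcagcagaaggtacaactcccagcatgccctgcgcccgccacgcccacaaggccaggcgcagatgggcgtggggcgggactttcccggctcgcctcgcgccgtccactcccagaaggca
Hmmr, chr11:40733438-40733637, minus strand: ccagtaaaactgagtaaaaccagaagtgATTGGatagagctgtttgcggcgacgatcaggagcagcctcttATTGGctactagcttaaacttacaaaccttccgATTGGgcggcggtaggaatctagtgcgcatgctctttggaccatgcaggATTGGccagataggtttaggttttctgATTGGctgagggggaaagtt
Cdk1, chr10:69352913-69353112, minus strand: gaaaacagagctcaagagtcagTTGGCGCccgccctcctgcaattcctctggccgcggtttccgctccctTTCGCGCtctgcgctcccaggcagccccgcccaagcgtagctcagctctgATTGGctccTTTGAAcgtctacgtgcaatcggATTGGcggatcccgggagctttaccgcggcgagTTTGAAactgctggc
Mcm2, chr6:88898781-88898980, minus strand: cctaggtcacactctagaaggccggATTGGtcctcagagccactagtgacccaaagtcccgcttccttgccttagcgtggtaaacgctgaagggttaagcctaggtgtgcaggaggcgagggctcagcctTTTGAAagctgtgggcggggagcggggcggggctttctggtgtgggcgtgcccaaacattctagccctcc
Mcm6 held 2 blocks in which E2F type matches on the 2 strands overlap, at bases -109 to -100 and -46 to -37 counted from the start, and a further match at bases 25 to 31 after it. Cdt1 had none in the stretch shown and its matches at bases 19 to 25 and 34 to 40 after the start. Ube2c carried a CHR at -29 to -24 with NF-Y boxes before it, and Hmmr 5 NF-Y boxes here and a CHR just after the start, at bases 9 to 14. Hmmr also had an E2F type match at -216 to -210, before the stretch shown. Cdk1 held both kinds within the stretch shown, 2 CHR matches and 2 E2F type matches. Mcm2 was the single S phase gene with a CHR match, at -70 to -65, and had no E2F type match in its window. The promoters of Mcm4, Gins1, Gins2, Pole, Ccne2, Ccna2, Aurkb, Kif20a, Tpx2 and Foxm1 were not analysed here. In Birc5, which fell, none of the motifs matched in the window of 300 bases, nor did they in Nusap1, Ccne1, E2f1 and Tyms.

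All 6 helicase subunit genes were higher in both knockout-labelled libraries than in either wild-type library, as were 39.3% of all tested genes. Mcm4, a core ATPase subunit, was at 3.90 and 7.21 FPKM in wild-type against 26.9 and 24.7 FPKM in the knockout-labelled libraries. That is 5.56 ± 2.33 against 25.8 ± 1.57 FPKM (SD, n = 2 each), a rise of 2.08 on the log2(FPKM + 1) scale (SE 0.33; limma, adjusted p = 0.037), and the groups were far apart. Mcm6, its neighbour in the ring, was at 12.9 and 11.4 FPKM and at 29.3 and 25.2 FPKM, a rise of 1.10 (SE 0.20; limma, adjusted p = 0.044). Mcm6 was the one subunit whose level was lower in the second wild-type library than in the first.

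The other 4 subunits did not pass the test. Mcm2 was at 3.49 and 5.59 FPKM in wild-type against 10.4 FPKM in each knockout-labelled library (difference 1.07, SE 0.28; limma, adjusted p = 0.076). Mcm5 was at 4.08 and 6.05 FPKM against 9.67 and 12.2 FPKM (0.99, SE 0.28; limma, adjusted p = 0.088). In both genes the groups did not overlap. Mcm7 was at 7.88 and 13.9 FPKM against 20.6 and 22.2 FPKM (0.96; limma, adjusted p = 0.12). Mcm3 was at 3.66 and 10.1 FPKM against 10.9 and 10.5 FPKM (0.70; limma, adjusted p = 0.35), so its second wild-type library almost reached the knockout-labelled libraries. The 6 proteins form one ring with 1 copy of each, while their RNA levels per length spanned 3.71-fold and 2.50-fold in the wild-type libraries and 3.04-fold and 2.42-fold in the knockout-labelled libraries. Mcm6 was the highest subunit in the first wild-type library and in both knockout-labelled libraries, and Mcm7 in the second wild-type library.

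The pair of licensing factors that load the helicase differed from each other. Cdt1 was at 3.99 and 7.12 FPKM in wild-type against 18.4 and 21.1 FPKM in the knockout-labelled libraries, a rise of 1.70 (SE 0.32; limma, adjusted p = 0.046). Cdc6 was below 1 FPKM in every library, at 0.968 and 0.569 FPKM in wild-type against 0.724 and 0.914 FPKM in the knockout-labelled libraries, and was not tested. The level of Cdt1 was 4.12 and 12.5 times that of Cdc6 in wild-type and 25.4 and 23.1 times in the knockout-labelled libraries.

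The GINS complex joins the loaded helicase to make it active, and its subunits were split. Gins1 and Gins2, which are among the members, had negative differences. Gins2 was at 13.4 and 9.48 FPKM in wild-type against 4.77 and 5.22 FPKM in the knockout-labelled libraries (difference -1.04, SE 0.26; limma, adjusted p = 0.071). Gins1 was at 2.32 and 6.83 FPKM against 2.57 and 1.59 FPKM, and the groups overlapped. Gins3 and Gins4, which are not among the members, went the other way without passing. Gins4 was at 11.4 and 17.4 FPKM against 24.1 and 24.9 FPKM. Gins3 was at 0.205 and 0.620 FPKM against 1.55 and 2.00 FPKM, so it reached 1 FPKM in the knockout-labelled libraries only. Within each library, which cancels any factor that scales the whole library, Mcm4 was at 0.292 and 0.760 times the level of Gins2 in wild-type against 5.64 and 4.73 times in the knockout-labelled libraries. The order of the 2 genes was thus opposite in the 2 groups. This pair was chosen after its values were seen.

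At the fork, Pcna, the sliding clamp of the DNA polymerases, was the most abundant of the 43 genes in every library. It was at 28.1 and 71.3 FPKM in wild-type against 95.1 and 90.6 FPKM in the knockout-labelled libraries (difference 1.03, SE 0.50; limma, adjusted p = 0.21). Pole, the catalytic subunit of the leading-strand polymerase, was low, at 0.158 and 0.0855 FPKM against 0.392 and 0.548 FPKM, and was not tested.

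Genes of nucleotide supply went both ways, and none passed. Rrm1 and Rrm2 encode the large and small subunits of ribonucleotide reductase, which makes deoxyribonucleotides. Rrm1 was at 7.62 and 8.92 FPKM in wild-type against 14.4 and 13.1 FPKM in the knockout-labelled libraries (difference 0.67; limma, adjusted p = 0.10), whereas Rrm2 was at 12.9 and 13.3 FPKM against 9.37 and 8.42 FPKM (-0.51; limma, adjusted p = 0.15). Tyms, the thymidylate synthase gene, was at 6.40 and 6.54 FPKM against 2.68 and 3.27 FPKM (-0.91, SE 0.22; limma, adjusted p = 0.065). For these 3 genes the wild-type libraries were close to each other. Their groups did not overlap, as in 71.4% of all tested genes.

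Chromatin copying genes were lower or overlapped. Chaf1b, a subunit of the assembly factor that places histones on new DNA, was at 5.45 and 6.81 FPKM in wild-type against 4.18 and 3.04 FPKM in the knockout-labelled libraries. Its partner Chaf1a was at 1.40 and 1.91 FPKM against 1.20 and 1.60 FPKM, which overlapped. Uhrf1, which guides maintenance methylation to new DNA, was at 2.62 and 2.63 FPKM against 2.13 and 1.75 FPKM. Their differences were between -0.63 and -0.14, and none passed.

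Regulators of entry into S phase had positive differences without passing. The cyclin E genes were higher in both knockout-labelled libraries: Ccne1 was at 1.25 and 2.21 FPKM against 4.22 and 3.61 FPKM (difference 0.87; limma, adjusted p = 0.11). Ccne2 was at 1.14 and 1.16 FPKM against 2.93 and 2.53 FPKM (0.79; limma, adjusted p = 0.071). E2f1, the transcription factor that drives many of these genes, was at 0.641 and 2.39 FPKM in wild-type against 2.04 and 2.08 FPKM in the knockout-labelled libraries. Its groups overlapped, and without the first wild-type library its difference of 0.37 became -0.15.

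**Figure D3:**
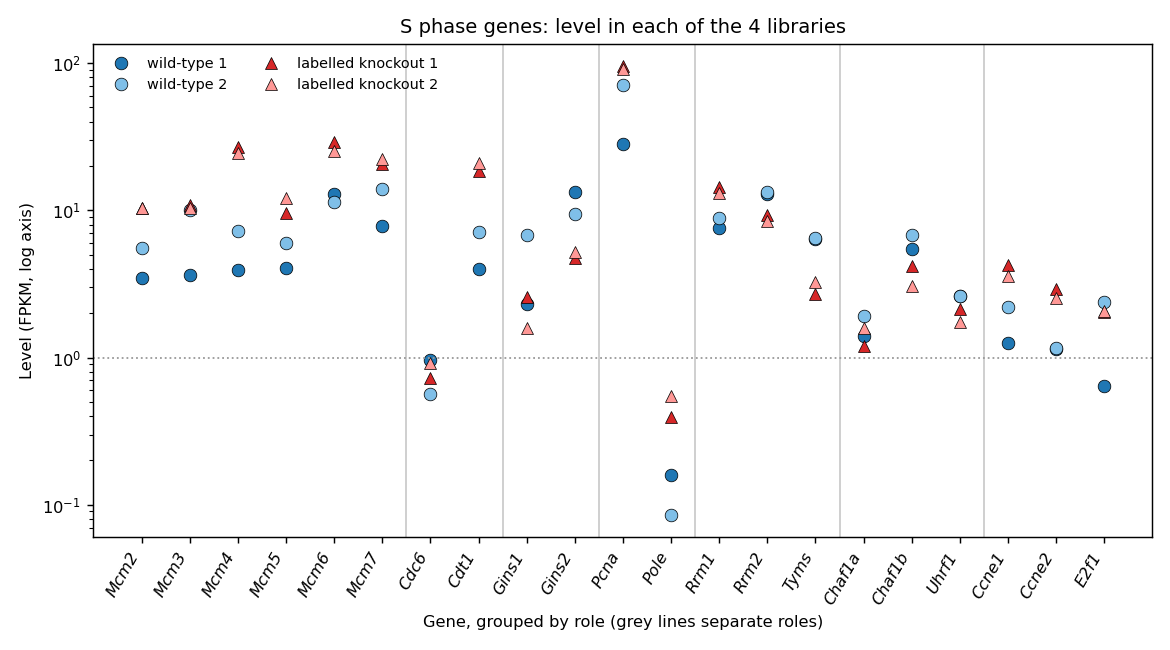
Level of the 21 S phase genes in each library (FPKM, log axis; circles wild-type, triangles labelled knockout), with grey lines between role groups and a dotted line at 1 FPKM. For Mcm2 to Mcm7 both triangles lie above both circles, whereas for Gins2, Rrm2, Tyms, Chaf1b and Uhrf1 both lie below.

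Over all 21 S phase genes, 17 had groups that did not overlap, as did 71.4% of all tested genes. Of the 21, 12 lay above both wild-type libraries in both knockout-labelled libraries, 5 lay below both and 4 overlapped. Among the 19 tested it was 11 above and 5 below. Over all tested genes, 39.3% lay above and 32.1% below. The helicase and loader genes account for 7 of the 12, with a median difference of 1.03 over their 8 genes. The other 13 S phase genes had 5 above, 5 below and a median difference of -0.14.

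Among mitosis genes, the cyclins and their kinase were lower in the knockout-labelled libraries without passing. Ccnb2, a mitotic cyclin, was at 9.45 and 16.2 FPKM in wild-type against 5.54 and 4.73 FPKM in the knockout-labelled libraries (difference -1.13, SE 0.33; limma, adjusted p = 0.092). Cdk1, the kinase that the mitotic cyclins activate, was at 4.04 and 8.51 FPKM against 2.71 and 2.79 FPKM (-0.89; limma, adjusted p = 0.18). Ccna2, the cyclin of S and G2 phase, was at 4.52 and 5.64 FPKM against 2.90 and 2.50 FPKM (-0.71; limma, adjusted p = 0.11). These 3 were separated by group, as were 71.4% of all tested genes, and the second wild-type library was highest in each. Ccnb1 was at 1.84 and 4.73 FPKM against 2.10 and 1.97 FPKM, so it overlapped. Foxm1, the transcription factor of many mitosis genes, was below 1 FPKM in every library, at 0.907 and 0.964 FPKM against 0.572 and 0.363 FPKM.

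The 4 members that act in the APC/C or the spindle checkpoint were all separated by group, as were 71.4% of all tested genes. Ube2c was at 23.5 and 29.2 FPKM in wild-type against 7.81 and 7.97 FPKM in the knockout-labelled libraries. That is 26.4 ± 4.06 against 7.89 ± 0.112 FPKM (SD, n = 2 each), and Ube2c fell by 1.61 on the log2(FPKM + 1) scale (SE 0.21; limma, adjusted p = 0.031). Cdc20, the APC/C activator of anaphase, was at 11.1 and 20.5 FPKM against 7.44 and 4.62 FPKM (difference -1.23, SE 0.41; limma, adjusted p = 0.11). Cdc20 had a large difference and a large error, and both pairs of replicates were apart. The checkpoint kinase genes were lower: Bub1b was at 2.31 and 3.18 FPKM against 1.21 and 0.962 FPKM (-0.84; limma, adjusted p = 0.084). Bub1 was at 0.978 and 1.25 FPKM against 0.536 and 0.554 FPKM and was not tested.

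Of the mitotic kinases and their partners, Birc5 stood apart. It was at 25.4 and 29.7 FPKM in wild-type against 9.53 and 8.68 FPKM in the knockout-labelled libraries, 27.5 ± 3.04 against 9.11 ± 0.597 FPKM (SD, n = 2 each). Birc5 fell by 1.49 (SE 0.20; limma, adjusted p = 0.032), with a wide gap between the groups. Aurkb, the kinase of the same passenger complex, was at 1.08 and 3.10 FPKM against 1.67 and 2.32 FPKM, with a difference of 0.03 that was -0.06 after median centring. Aurka, the centrosome kinase, was at 3.39 and 6.33 FPKM against 2.88 and 3.21 FPKM (-0.49; limma, adjusted p = 0.34). Its activator Tpx2 was at 2.40 and 4.06 FPKM against 1.09 and 1.90 FPKM (-0.75; limma, adjusted p = 0.18). Both were lower in each knockout-labelled library, without passing. Plk1, a kinase of mitotic entry and spindle assembly, was at 0.633 and 2.88 FPKM against 0.711 and 1.44 FPKM and overlapped.

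Spindle, motor and kinetochore genes were divided. Hmmr was at 2.80 and 2.96 FPKM in wild-type against 0.788 and 0.805 FPKM in the knockout-labelled libraries, a log2 difference of -1.11 (SE 0.19). Its replicates were close to each other in both groups, and since it entered the test through its wild-type level alone, its p is not given. The motor genes Kif11 and Kif20a overlapped: Kif11 was at 0.777 and 1.52 FPKM against 1.44 and 1.33 FPKM, and Kif20a at 2.08 and 3.53 FPKM against 2.71 and 1.80 FPKM. Nusap1, a microtubule-bundling protein, was between 1.69 and 2.01 FPKM in all 4 libraries. Cenpf, a large kinetochore protein, was at 0.245 and 0.634 FPKM against 0.0541 and 0.0427 FPKM, and Cenpe, a kinetochore motor, was at 0.238 and 1.23 FPKM against 0.532 and 0.502 FPKM. Neither was tested.

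The most used proliferation marker did not separate the groups. Mki67, the Ki-67 antigen that coats mitotic chromosomes, was at 0.254 and 1.64 FPKM in wild-type against 0.527 and 0.446 FPKM in the knockout-labelled libraries, below the filter. Top2a, which untangles DNA before chromosomes part, was at 2.58 and 4.15 FPKM against 2.22 and 2.80 FPKM (difference -0.30, SE 0.29; limma, adjusted p = 0.50). In both genes the second wild-type library was the highest.

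**Figure D4:**
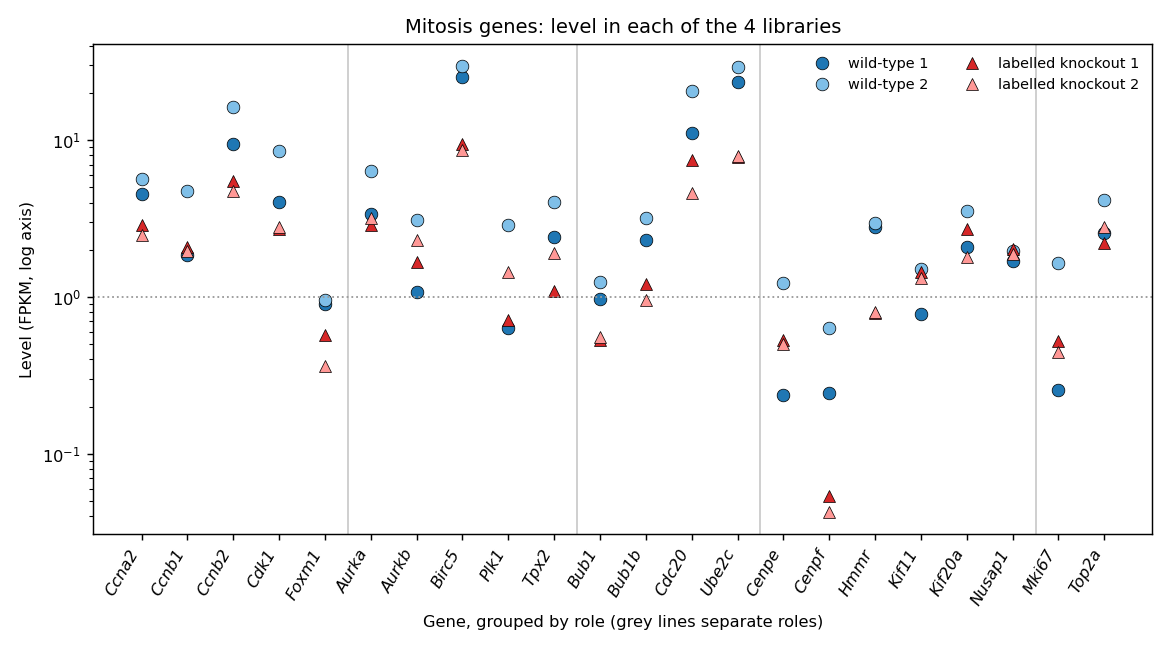
Level of the 22 mitosis genes in each library (FPKM, log axis; circles wild-type, triangles labelled knockout), with grey lines between role groups and a dotted line at 1 FPKM. In Birc5, Ube2c and Hmmr both triangles lie well below both circles, whereas in Aurkb, Kif11 and Nusap1 they overlap.

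Of all 22 mitosis genes, 13 lay below both wild-type libraries in both knockout-labelled libraries, none lay above both and 9 overlapped. Among the 17 tested it was 10 below, against 32.1% of all tested genes below and 39.3% above. Within wild-type, 22 of the 22 mitosis genes and 17 of the 21 S phase genes were higher in the second library than in the first, as were 47.8% of all tested genes. That library also held the highest macrophage, endothelial and fibroblast marker sums. The size of the mitosis difference depended on it: the median over the 22 genes was -0.45 with all libraries, -0.85 when the first wild-type library was left out and -0.30 when the second was.

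The phases were then set side by side within each library. The median log2(FPKM + 1) of the 22 mitosis genes was 1.67 and 2.12 in wild-type against 1.504 and 1.531 in the knockout-labelled libraries. That of the 21 S phase genes was 2.29 and 2.97 against 2.53 and 2.64, so the S phase median lay between the wild-type libraries. The mitosis median minus the S phase median was -0.62 and -0.84 in wild-type against -1.02 and -1.11 in the knockout-labelled libraries, a mean shift of -0.33 with no overlap. The helicase genes showed a wider contrast. Mcm2 to Mcm7 summed to 36.0 and 54.3 FPKM in wild-type and to 108 and 105 FPKM in the knockout-labelled libraries, and the 22 mitosis genes to 102 and 154 FPKM against 57.0 and 53.6 FPKM. The ratio of these sums was 0.352 and 0.353 in wild-type against 1.89 and 1.96 in the knockout-labelled libraries. The mitosis sum is weighted toward its abundant genes, above all Birc5 and Ube2c, and the ratio was formed after the values were seen. No test was run on it. Lymphocyte markers were higher and epithelial markers lower in the same libraries in which the ratio was high, and their part was not tested.

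**Figure D5:**
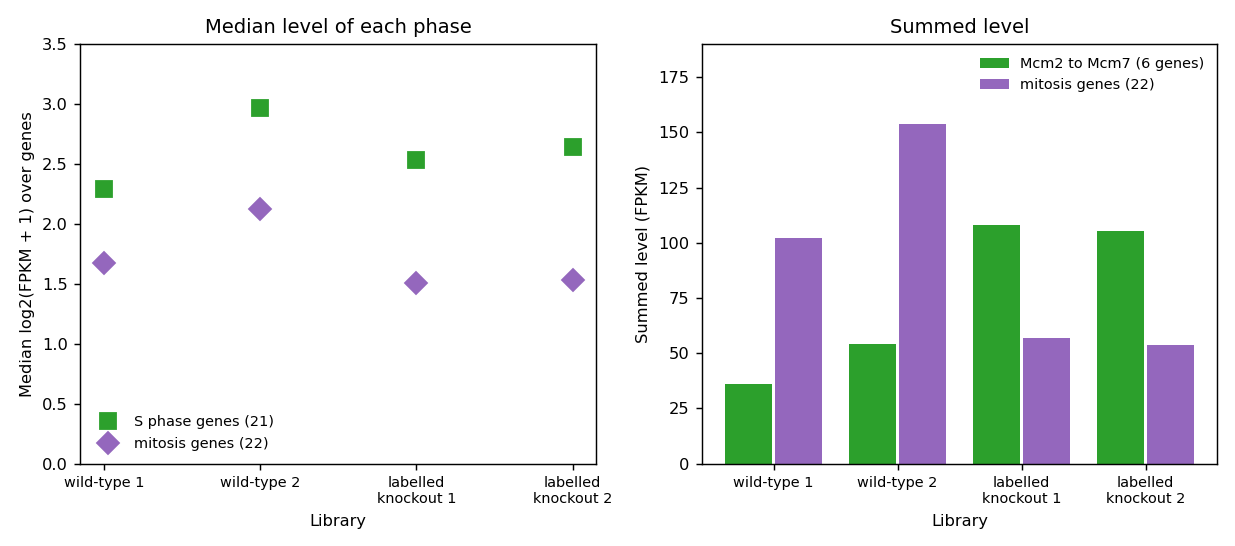
Left, median log2(FPKM + 1) of the 21 S phase and 22 mitosis genes in each library. Right, summed FPKM of Mcm2 to Mcm7 and of the 22 mitosis genes. The mitosis sum is above the helicase sum in both wild-type libraries and below it in both knockout-labelled libraries.

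The 6 calls needed both knockout-labelled libraries. Without either of them none of the 6 genes passed (limma, adjusted p between 0.40 and 0.45). Without the first knockout-labelled library, 2 S phase genes were higher and 2 mitosis genes lower at an unadjusted p under 0.05, and without the second it was 1 and 2. Without the first wild-type library, Mcm4, Mcm6 and Cdt1 differed by 1.71, 1.19 and 1.35, and Birc5, Ube2c and Hmmr by -1.60, -1.77 and -1.14. Without the second, the same genes differed by 2.45, 1.02 and 2.05, and by -1.38, -1.46 and -1.08. In those fits the single wild-type library is assumed to vary as little as the knockout-labelled pair. Counts of calls from those fits are therefore not read here. Mcm6 did not pass with each library rescaled to a common total, after median centring or after quantile normalization (limma, adjusted p = 0.052, 0.057 and 0.053), and Cdt1 did not with a pseudocount of 0.1 (limma, adjusted p = 0.053).

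Genes of the same processes outside the 43 were counted from further lists. Of 38 other replication genes, 4 rose, none fell, 29 did not pass and 5 were not tested, and 4 of 33 is close to the 9.51% of all tested genes that rose. The median difference was 0.48, and at an unadjusted p under 0.05 in limma 13 were higher and 0 lower. Dbf4, the activating subunit of the kinase that fires origins, was at 2.75 and 2.77 FPKM in wild-type against 16.6 and 16.4 FPKM in the knockout-labelled libraries (rise of 2.22, SE 0.20; limma, adjusted p = 0.024). Its kinase partner Cdc7 was at 2.39 and 1.85 FPKM against 5.17 and 5.37 FPKM (limma, adjusted p = 0.058); it was chosen after its values were seen. The single-strand binding protein gene Rpa1 rose by 1.87 (SE 0.18), the lagging-strand polymerase gene Pold1 by 2.08 (SE 0.37) and the histone mRNA binding protein gene Slbp by 1.62 (SE 0.18). Of the 33 tested, 20 lay above both wild-type libraries and 0 below, where 39.3% and 32.1% of all tested genes did. Pold1 no longer passed at a pseudocount of 0.1 (limma, adjusted p = 0.054).

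None of the other mitosis genes tested fell past the threshold. Of 42, 2 rose, 28 did not pass and 12 were not tested, where 9.51% of all tested genes rose and 6.99% fell, and the median difference was -0.22. At an unadjusted p under 0.05 in limma 6 were higher and 2 lower. Cdc25b, a phosphatase that activates Cdk1, went from 0.629 and 1.40 FPKM in wild-type up to 9.85 and 7.98 FPKM (2.32, SE 0.30; limma, adjusted p = 0.031). The condensin gene Smc4 went from 6.03 and 11.4 FPKM up to 48.6 and 48.3 FPKM (2.40, SE 0.34; limma, adjusted p = 0.033). Of the 30 tested, 10 lay above both wild-type libraries and 13 below, where 39.3% and 32.1% of all tested genes did. Ndc80, an outer kinetochore protein, was at 0.0946 and 3.00 FPKM against 11.3 and 13.0 FPKM (limma, adjusted p = 0.078), while Spc24 of the same complex was at 5.48 and 8.66 FPKM against 3.00 and 1.87 FPKM (limma, adjusted p = 0.082). These 2 were chosen after their values were seen. In the promoters of these further lists, CHR matches were in 73.0% of 37 mitosis windows and 17.5% of 40 replication windows, the latter close to the 17.9% of all windows. E2F type matches were in 21.6% and 52.5%.

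Of the D-type cyclins, which act in G1, Ccnd1 and Ccnd2 changed order, while Ccnd3 was the highest of the 3 in every library. Ccnd1 fell, with 6.49 and 12.7 FPKM in wild-type against 1.26 and 1.55 FPKM in the knockout-labelled libraries (log2 difference -2.08, SE 0.38). Ccnd2 rose from 0.868 and 2.90 FPKM to 28.8 and 27.0 FPKM (3.42, SE 0.43), and Ccnd3 from 28.9 and 19.5 FPKM to 63.0 and 70.9 FPKM (1.45, SE 0.27). Ccnd2 had the largest difference of any gene in the cell cycle lists. Of the 20 genes of G1 cyclins, kinases and the E2F family, 4 rose, 1 fell, 11 did not pass and 4 were not tested, where 9.51% of all tested genes rose and 6.99% fell. The others to rise were Lin9 and Lin54, subunits of the complex that represses or activates cell cycle promoters. The calls of Ccnd3 and Lin9 ended after median centring (limma, adjusted p = 0.053 and 0.051), that of Ccnd3 also with libraries rescaled to a common total (limma, adjusted p = 0.054), and Lin54 no longer passed at a pseudocount of 0.1 (limma, adjusted p = 0.051).

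Of 19 genes of inhibitors and quiescence, 6 rose, none fell, 12 did not pass and 1 was not tested, where 9.51% of all tested genes rose and 6.99% fell. Their median difference was 0.72. At an unadjusted p under 0.05 in limma 9 were higher and 1 lower. Cdkn1b, the p27 inhibitor of cyclin-dependent kinases, was at 1.65 and 1.64 FPKM in wild-type against 10.3 and 9.87 FPKM in the knockout-labelled libraries (2.07, SE 0.21; limma, adjusted p = 0.024). Rbl2, the p130 pocket protein of quiescent cells, rose by 2.25 (SE 0.27), Cdkn2d, an inhibitor of the cyclin D kinases, by 2.16 (SE 0.35), Foxo1 by 1.79 (SE 0.25), the antiproliferative gene Btg1 by 1.58 (SE 0.18) and Trp53 by 1.22 (SE 0.21). Cdkn1c, a related inhibitor, was at 11.9 and 7.93 FPKM against 3.04 and 3.47 FPKM (limma, adjusted p = 0.054), and was chosen after its values were seen. The call of Trp53 ended after median centring and with libraries rescaled to a common total (limma, adjusted p = 0.053 and 0.051). Of 21 APC/C and SCF ubiquitin ligase genes, 19 did not pass, 2 were lower past the threshold, where 6.99% of all tested genes were, and 0 higher (2 higher at an unadjusted p under 0.05 in limma). Those lower were Anapc13 (-1.16, SE 0.17) and Cks1b (-1.40, SE 0.18), the cofactor through which the SCF ligase recognises p27. Of the 19 genes past the threshold in these 5 lists, none passed with no filter on low values (limma, adjusted p from 0.055 to 0.077). With the replicate number as a block 16 did not pass, and Dbf4, Smc4 and Ccnd2 did. The summed lymphocyte markers were high and the summed epithelial markers low in the libraries where the genes of these lists rose or fell, and their part was not tested.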

How the data were processed

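RNA from sorted YFP+ tumor cells was made into libraries with a low-input SMARTer mRNA kit, per the labels' protocols. The authors deposited 1 FPKM value per gene and library. The unit was read from the values, since the header names none: among genes below 0.1 FPKM, 49.6 to 60.4% stood in whole-number ratios between libraries (within 0.2%), against 0 to 0.55% with the scale moved. The submitters' processing notes name mm9. Aligner, quantification tool and annotation: not given in the sources used here. Promoters come from GRCm38.p6 and were matched by symbol only. Of 24043 rows, 92 spike-in rows, all at 0, were left out, and 27 rows named by dates were tested but not named.

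A gene was tested if 2 or more libraries reached 1 FPKM. The tool was limma 3.58.1 (R 4.3.3), applied to log2(FPKM + 1) with trended, robust variance estimates and Benjamini-Hochberg adjustment over all 11138 at 0.05. Differences on this scale understate changes of low genes. On simulated data for this comparison (11138 genes in 10 runs) the fit called 1.2% of genes changed 2-fold, 35.4% at 4-fold and 76.2% at 8-fold, with 0.4 false calls a run. Each run changed few genes and drew the noise of each gene independently. In the real data 16.5% of tested genes passed and marker sums differed between the wild-type libraries. The simulated rates may therefore not hold for them. The members, lists and motifs were chosen with earlier results of these data known. All 43 members are named. Of other lists, genes past the threshold (at most 6 of lowest p) are named, with a few chosen afterwards. Of the promoters planned, those of Ccnb1 and E2f1 are not printed. Alternatives were another pseudocount, filter, scaling or prior, the replicate block, and leaving out each library.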

Additional observations from a re-analysis of the deposited data

How the results depend on the processing

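Of the 6 members that passed, Mcm4, Mcm6, Cdt1, Birc5 and Ube2c kept their direction under every alternative. Hmmr did so where it was tested, but it entered the main test through its wild-type level alone, so its direction adds nothing. No call held under every alternative. With no filter on low values 0 S phase members were higher and 0 mitosis members lower (limma; 9 and 7 at an unadjusted p under 0.05), and among all genes 2 were higher and 0 lower, in place of 1059 and 778. With the replicate number as a block, 0 S phase and 0 mitosis members passed (limma; 6 higher and 4 lower at an unadjusted p under 0.05), and 346 genes were higher and 155 lower. The numbers share no stated source, and the correlation of deviations of same-numbered libraries was -0.062. Leaving out each library in turn gave 0 to 12 S phase members higher and 0 to 5 lower, 0 to 13 mitosis members lower and 0 to 1 higher, and 0 to 4269 genes higher and 0 to 3643 lower. The upper ends of these ranges came from fits with a single wild-type library, assumed to vary as little as the knockout-labelled pair. These counts are therefore not read as a measure of sensitivity. Over the libraries left out, the S phase median ranged from 0.38 to 0.80, the mitosis median from -0.85 to -0.30 and the phase shift from -0.44 to -0.22. A pseudocount of 0.1 gave a mitosis median of -0.89 and a phase shift of -0.47. Hmmr could not be tested with a filter at 5 FPKM. Filters, prior and block do not bear on the medians and gave none.

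Members with small differences changed sign. Aurkb was at -0.064 after median centring and -0.0081 after quantile normalization, and Nusap1 at -0.034 after median centring. Over the libraries left out, E2f1 ranged from -0.15 to 0.90, Ccnb1 from -0.92 to 0.092, Plk1 from -0.92 to 0.32, Aurkb from -0.46 to 0.52, Kif11 from -0.080 to 0.42, Kif20a from -0.49 to 0.066 and Nusap1 from -0.012 to 0.13. Cdc6, Pole, Foxm1, Bub1, Mki67, Cenpe and Cenpf did not reach the filter, and whether depth plays a part was not tested.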
